A study of Drosophila melanogaster with 4 samples.

Results

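The 44 genes described here encode proteins of the Drosophila mitochondrial ribosome and were chosen by symbol, as the protein-coding genes named mRpL or mRpS and a number on the chromosome arms 2L, 3R and X. They are 44 of 8207 protein-coding genes of these arms that could be placed on the genome release of the deposited region lists. A further 29 of the 73 genes with such symbols lie elsewhere in the genome and are not analysed here. The 2L arm holds 12 of the genes, 3R holds 21 and X holds 11. By symbol 28 are mRpL genes, named for the large subunit, and 16 are mRpS genes, named for the small one. The rule uses symbols and positions alone, but the gene family was picked with earlier results of these data known.

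The mitochondrial ribosome translates the few messages encoded by mitochondrial DNA, whose products are subunits of the respiratory chain and of ATP synthase. Its RNA is encoded in the mitochondrion, while its proteins are encoded in the nucleus, transcribed by RNA polymerase II, made in the cytoplasm and imported. Some of these proteins descend from bacterial ribosomal proteins and keep the bacterial number, and others, mostly with higher numbers, belong to mitochondrial ribosomes alone. The cells thus need the products of many scattered nuclear genes to build a single particle.

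The study mapped RNA polymerase II phosphorylated on serine 5 of the repeats in the tail of its largest subunit, the form found where transcription starts and in early elongation, by chromatin immunoprecipitation and sequencing (ChIP-seq). The cells were Kc167, a female line derived from Drosophila melanogaster embryos, which the labels give as late embryonic, with the genotype se/e. The 2 ChIP libraries were made with the rabbit polyclonal antibody ab5131, and the 2 Input libraries hold genomic DNA from the same kind of cells taken without precipitation. Used here were 3 lists of regions, 1 for each ChIP replicate and 1 that the authors made for both together, here named the combined list. No region list of the Input libraries and no read counts were used here, so the depth of the libraries is unknown and signal outside the regions has no value.

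Each listed region has a start, an end and a score, which the authors gave and which was read as a value on a log2 scale. A score above 0 marks an enriched region and a score below 0 a depleted one. The score belongs to the whole region and not to a gene, so genes in the same region carry the same score. The gene table used here gives the 2 ends of each gene without its strand. A start site was therefore taken as covered where both ends lay in enriched regions, as not covered where neither did, and as undetermined where 1 end did. Among genes chosen as markers, 5 of 8 hemocyte-type genes had at least 1 end in an enriched region of each list (srp, Col4a1, vkg, Pvr and eater), and He, NimC1 and Sr-CI had none. By that measure the share of all other genes was 55.4%, 55.4% and 56.9% in replicate 1, replicate 2 and the combined list, close to the 62.5% of the hemocyte-type genes, of which 2 had both ends covered. Of 6 genes of muscle, neurons and germ line, bam and elav had 1 end covered in each list, and Mhc, Act88F, wupA and fne had none. These few markers do not set the cells apart from the general level of coverage.

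Every mitochondrial ribosomal protein gene of the 3 arms met an enriched region, and nearly all lay inside one. Both gene ends were covered for 41 of the 44 genes in replicate 1, for 40 in replicate 2 and for 41 in the combined list. Among the 8163 other genes of these arms, both ends were covered for 26.8% in replicate 1, 26.8% in replicate 2 and 30.3% in the combined list. As a mean of the replicates this was 92.0% ± 1.61 of the mitochondrial ribosomal protein genes, against 26.8% ± 0.0260 of the other genes (SD, n = 2 replicates). The gap between these percentages exceeded the spread between replicates many times over. The spread covers the 2 libraries only, and no test was made, since genes are not replicates.

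At least 1 end was covered for all 44 genes in each of the lists. The other genes reached 55.4% in replicate 1, 55.4% in replicate 2 and 56.9% in the combined list by the same measure. The start site of every one of the 44 genes was thus either covered or undetermined, and none was uncovered. The whole gene lay in enriched regions for 41, 40 and 41 of the genes in replicate 1, replicate 2 and the combined list. For the other genes this held for 18.5% in replicate 1, 19.1% in replicate 2 and 21.9% in the combined list. Of all bases in the 44 genes, 76.9%, 76.5% and 77.4% were covered in replicate 1, replicate 2 and the combined list, against 17.3%, 17.7% and 19.3% of the bases in the other genes. The uncovered bases of the 44 genes came largely from mRpS9, the longest of them.

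**Figure D1:**
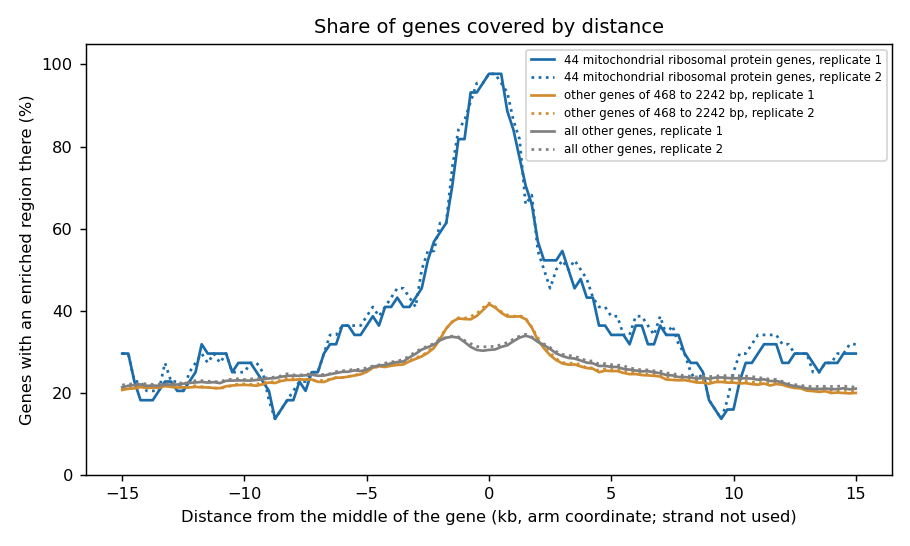
Share of genes with an enriched region at each distance from the middle of the gene, in kb along the arm, for the 44 mitochondrial ribosomal protein genes, the other genes of 468 to 2242 bp and all 8163 other genes, with a line for each replicate. The 44 genes reach 97.7% at the middle of the gene in both replicates and fall away on both sides, to shares that dip below those of the other genes near 9 kb and vary below and above them farther out.

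The coverage was centred on the genes. At the middle of the gene, an enriched region was present for 97.7% of the 44 genes in replicate 1 and 97.7% in replicate 2, against 30.4% and 31.3% of the other genes. At 2 kb below the middle on the arm, the shares were 59.1% and 61.4% of the 44 genes, against 32.8% and 33.1% of the other genes. At 10 kb below it they were 27.3% and 25%, against 23.0% and 23.2%. On the other side, at 10 kb above the middle, 15.9% and 25% of the 44 genes met a region, against 23.5% and 24.2% of the other genes. Farther out the share of the 44 genes did not settle at that of the other genes, and at 15 kb above the middle it was 29.5% and 31.8%, against 21% and 21.4%. The other genes of 468 to 2242 bp also had their highest share at the middle, with 41.6% in replicate 1 and 41.9% in replicate 2. At 2 kb below the middle these short genes had 33.1% and 33.5%. Centred coverage was thus shared by other short genes, and the 44 genes differed in the height of their peak. The region that held 1 of the 44 genes reached a median of 1.52 kb below its low end in replicate 1 and 1.77 kb in replicate 2, and a median of 1.55 and 1.54 kb above its high end.

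The same 40 genes had both ends covered in all 3 lists, and 4 did not. The start sites of mRpL24, mRpL37 and mRpS9 were undetermined in every list. mRpL24, whose bacterial counterpart lies near the exit of the tunnel through which the new protein leaves, had 66.8% of its bases covered in replicate 1, 71.6% in replicate 2 and 74.7% in the combined list. mRpL37, a protein of mitochondrial ribosomes with no bacterial counterpart, had 79.2%, 85.2% and 87.6% covered in the same order. Both genes thus lay mostly, though not fully, within a region.

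The gene of mRpS9, counterpart of a protein in the head of the bacterial small subunit, had 8.30% of its bases covered in replicate 1, 8.22% in replicate 2 and 8.39% in the combined list. It is 13391 bp long in the gene table, and the next longest of the 44 genes is 2242 bp. Its region covered the end at the higher coordinate and 0.909 kb beyond it, and also touched EMC1, a gene for a subunit of the complex that inserts proteins into the endoplasmic reticulum membrane. mRpL38 was the 1 gene whose call differed between lists, with 100% of its bases covered in replicate 1, 75.3% in replicate 2 and 100% in the combined list.

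**Figure D2:**
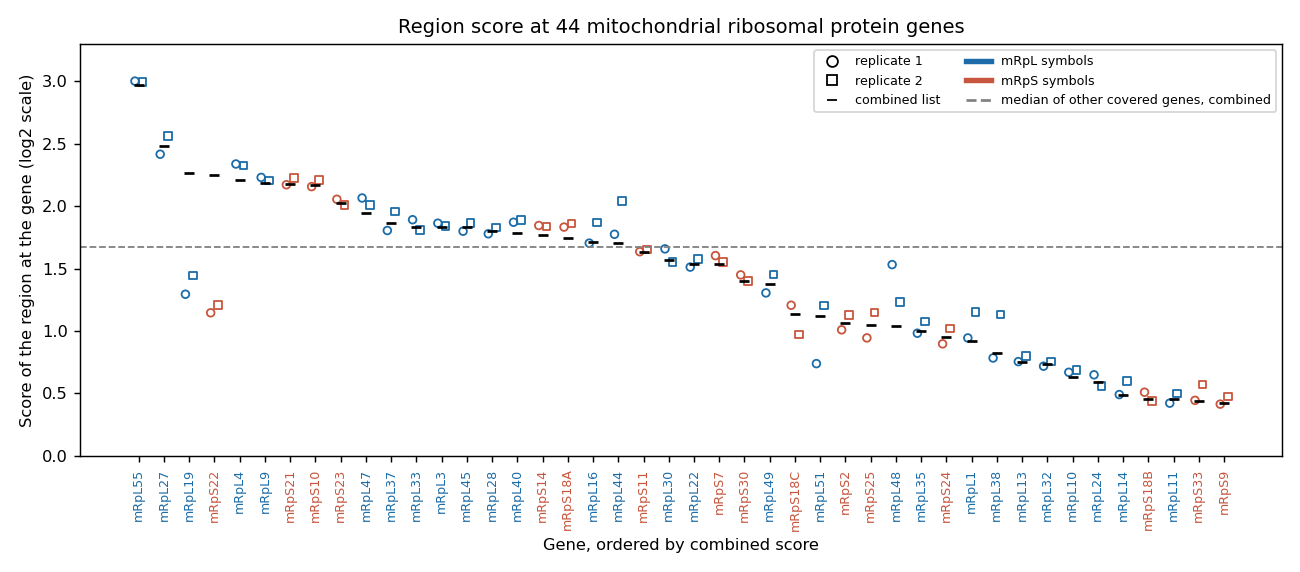
Score of the enriched region at each of the 44 genes, on a log2 scale, in replicate 1 (circles), replicate 2 (squares) and the combined list (bars), ordered by the combined score, with mRpL symbols in blue and mRpS symbols in red. Scores run between 0.42 and 2.97 in the combined list, and the bars of mRpL19 and mRpS22 stand well above their replicate values.

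Being covered did not go with a high score. Across the 44 genes the median score was 1.52 in replicate 1, 1.5 in replicate 2 and 1.55 in the combined list. The other covered genes had medians of 1.71, 1.75 and 1.68 in the same lists, taking the higher score where a gene's ends lay in different regions. Taking the lower one, which leaves the medians of the 44 genes as they are, the other genes had 1.59, 1.62 and 1.55. As a mean of the replicates the medians were 1.51 ± 0.01 for the 44 genes, against 1.73 ± 0.03 for the other covered genes by the higher score (SD, n = 2 replicates). With the lower score the combined medians were equal to 2 decimals, so the size of the gap rests on that choice.

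The lower part of the range was the fuller one. Below the lower quartile of the other covered genes, by their higher score, lay 18 of the 44 genes in replicate 1, 19 in replicate 2 and 18 in the combined list. Above the upper quartile lay 4, 4 and 7. The median gene of the 44 had a score above 38% of the other covered genes in replicate 1, 35.5% in replicate 2 and 42.5% in the combined list. The 44 genes did not share a level, as the plot of region scores shows: their lowest and highest scores were 0.41 and 3.00 in replicate 1, and 0.44 and 3.00 in replicate 2.

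The highest score was that of mRpL55, a large-subunit protein with no bacterial counterpart. It scored 3.00 in replicate 1, 3.00 in replicate 2 and 2.97 in the combined list, above 95.6% of the other covered genes there. Its combined region, on 3R at 14918618 to 14922868 in release 5 coordinates, was 4.25 kb wide and also touched cdi, CG6040 and ATPsynD, which encodes a subunit of the mitochondrial ATP synthase. No other of the 44 genes reached 2.6 in any list.

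mRpL27 followed, with 2.42 in replicate 1, 2.56 in replicate 2 and 2.48 in the combined list. In bacteria its counterpart lies beside the peptidyl transferase centre, where peptide bonds form. Its combined region, on 2L at 4451778 to 4461056, touched 6 other genes, among them RpL27A, a protein of the cytoplasmic ribosome, and ND-B8, a subunit of respiratory complex I. mRpL4, whose bacterial counterpart lines the exit tunnel, scored 2.34, 2.33 and 2.21 in replicate 1, replicate 2 and the combined list. It shared a region of 13.1 kb in the combined list with cact, which encodes the inhibitor of the NF-kappaB factor Dorsal, and with CG4278 and CG4440.

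Among the 5 highest combined scores, those of mRpL19 and mRpS22 belonged to regions that also spanned a higher-scoring neighbouring stretch. How the authors made the combined scores was not given. mRpL19 had 2.27 in the combined list, but 1.29 in replicate 1 and 1.44 in replicate 2. In both replicates the combined region of mRpL19 was divided, and the piece without the gene, over p and CG8036, scored 3.02 in replicate 1 and 2.95 in replicate 2. mRpS22, a small-subunit protein with no bacterial counterpart, had 2.25 in the combined list, but 1.15 in replicate 1 and 1.21 in replicate 2. The adjoining piece, with CG12259, BCAS2, mino and the cytoplasmic ribosomal protein gene RpL4, scored 2.68 and 2.90. For both genes the replicate values are those of the shorter region that holds the gene.

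In the other direction, mRpL48 had 1.53 in replicate 1, 1.23 in replicate 2 and 1.04 in the combined list, where its region was joined to lower-scoring pieces over chinmo, cpb and CG17660. The combined score of these 3 genes was 0.3 or more from the mean of their replicate scores, and the other 41 genes lay closer. The combined region was broken into more than 1 piece in at least 1 replicate for 11 of the genes, and in both replicates it was whole for 33.

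The lowest scores were 0.41 in replicate 1, 0.47 in replicate 2 and 0.42 in the combined list for mRpS9. mRpS33, a small mitochondrial protein of that subunit, scored 0.44, 0.57 and 0.44 in the same lists. mRpL11, whose bacterial counterpart sits at the base of the stalk that receives elongation factors, scored 0.42, 0.50 and 0.45. These 3 genes were named for their low combined scores, and their scores were low in both replicates too.

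mRpS18B, 1 of 3 related S18-type genes among the 44, scored 0.51 in replicate 1, 0.44 in replicate 2 and 0.46 in the combined list. The other 2 stood higher, with 1.83, 1.86 and 1.74 for mRpS18A and 1.21, 0.97 and 1.13 for mRpS18C in those lists. mRpL14, whose bacterial counterpart faces the small subunit, scored 0.49, 0.60 and 0.49. For these 5 lowest genes, apart from mRpS9, both ends were covered in every list.

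The stalk base and the tunnel exit of the large subunit were followed by name. At the stalk base, mRpL10, the counterpart of the bacterial protein that anchors the stalk, scored 0.67 in replicate 1, 0.69 in replicate 2 and 0.63 in the combined list, and mRpL11 was lower still. Both stalk-base genes were below the lower quartile of the other covered genes. Around the tunnel exit the values were spread more widely. mRpL24 scored 0.65 in replicate 1, 0.56 in replicate 2 and 0.59 in the combined list. mRpL22, whose bacterial counterpart lines the tunnel, scored 1.51, 1.57 and 1.54.

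mRpL45, whose mammalian counterpart helps hold the ribosome at the inner membrane, scored 1.80 in replicate 1, 1.86 in replicate 2 and 1.83 in the combined list. mRpL47, related to a bacterial protein at the tunnel exit, scored 2.07, 2.01 and 1.94. The 4 genes followed here for the tunnel exit had combined scores above 7.10%, 41.0%, 58.7% and 64.4% of the other covered genes for mRpL24, mRpL22, mRpL45 and mRpL47. The figure for mRpL4, the tunnel-lining protein described above, was 77.0%.

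Near the peptidyl transferase centre of bacterial ribosomes lie the counterparts of mRpL3 and mRpL16. mRpL3 scored 1.86 in replicate 1, 1.84 in replicate 2 and 1.83 in the combined list, and mRpL16 scored 1.70, 1.87 and 1.71. Both were above the median of the other covered genes in the combined list, as was mRpL27. mRpL44, which has a domain related to RNase III, scored 1.78, 2.04 and 1.71. mRpL1, whose bacterial counterpart forms the stalk on the other side of the subunit, scored 0.94, 1.15 and 0.92.

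In both replicates the highest scores among the mRpS genes were those of mRpS21, mRpS10 and mRpS23, which in the combined list came after mRpS22. mRpS21 scored 2.17 in replicate 1, 2.23 in replicate 2 and 2.18 in the combined list. mRpS10, whose bacterial counterpart lies in the head of the small subunit with those of mRpS7, mRpS9 and mRpS14, scored 2.16, 2.21 and 2.17. The other 3 head proteins spread below it, with combined scores of 1.77 for mRpS14, 1.53 for mRpS7 and 0.42 for mRpS9. mRpS11, of the platform next to the head, scored 1.64, 1.65 and 1.63, and mRpS2 scored 1.01, 1.13 and 1.06.

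Taken by symbol, the mRpL genes had a median score of 1.58 ± 0.02 and the mRpS genes of 1.32 ± 0.02 (SD over the medians of 2 replicates). In the combined list the medians were 1.64 and 1.47. Scores there ran from 0.45 to 2.97 for mRpL genes and from 0.42 to 2.25 for mRpS genes, overlapping in large part. Both ends were covered for 26 of 28 mRpL and 15 of 16 mRpS genes in that list. The symbols do not fix the place in the particle in every case, since the mammalian counterpart of mRpS30 is found in the large subunit. mRpS30 scored 1.45 in replicate 1, 1.40 in replicate 2 and 1.40 in the combined list.

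The 28 genes that carry a bacterial number had a median of 1.55 in the combined list, and the 16 with a higher number also had 1.55. In replicate 1 and replicate 2 the medians were 1.56 and 1.55 for the 28 genes, against 1.49 and 1.43 for the 16. By arm, the combined median was 1.09 for the 12 genes of 2L, 1.74 for the 21 of 3R and 1.54 for the 11 of X. The other covered genes of those arms had 1.64, 1.68 and 1.71, so the 2L genes lay farthest from their arm. On 2L the replicate medians were 1.27 and 1.22, against 1.72 and 1.73 for the other covered genes of that arm, and 5 of the 12 genes scored above 1.5 in the combined list.

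The order of the genes was nearly the same in both replicates. Over the 44 genes the Pearson correlation of the replicate scores was 0.978 and the Spearman correlation 0.963, given as a description, since the replicates share their cells and antibody. The scores differed by a median of 0.0688, and 27 genes were within 0.1. The score was higher in replicate 2 for 29 genes, with a median difference of replicate 2 minus replicate 1 of 0.05, beside 0.03 over 4473 other genes covered in both. The widest gap was that of mRpL51, with 0.74 in replicate 1 and 1.20 in replicate 2. In replicate 1 its region was cut off from a piece over CG13097 and PIG-U that scored 1.36, and in replicate 2 the same stretch was joined.

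**Figure D3:**
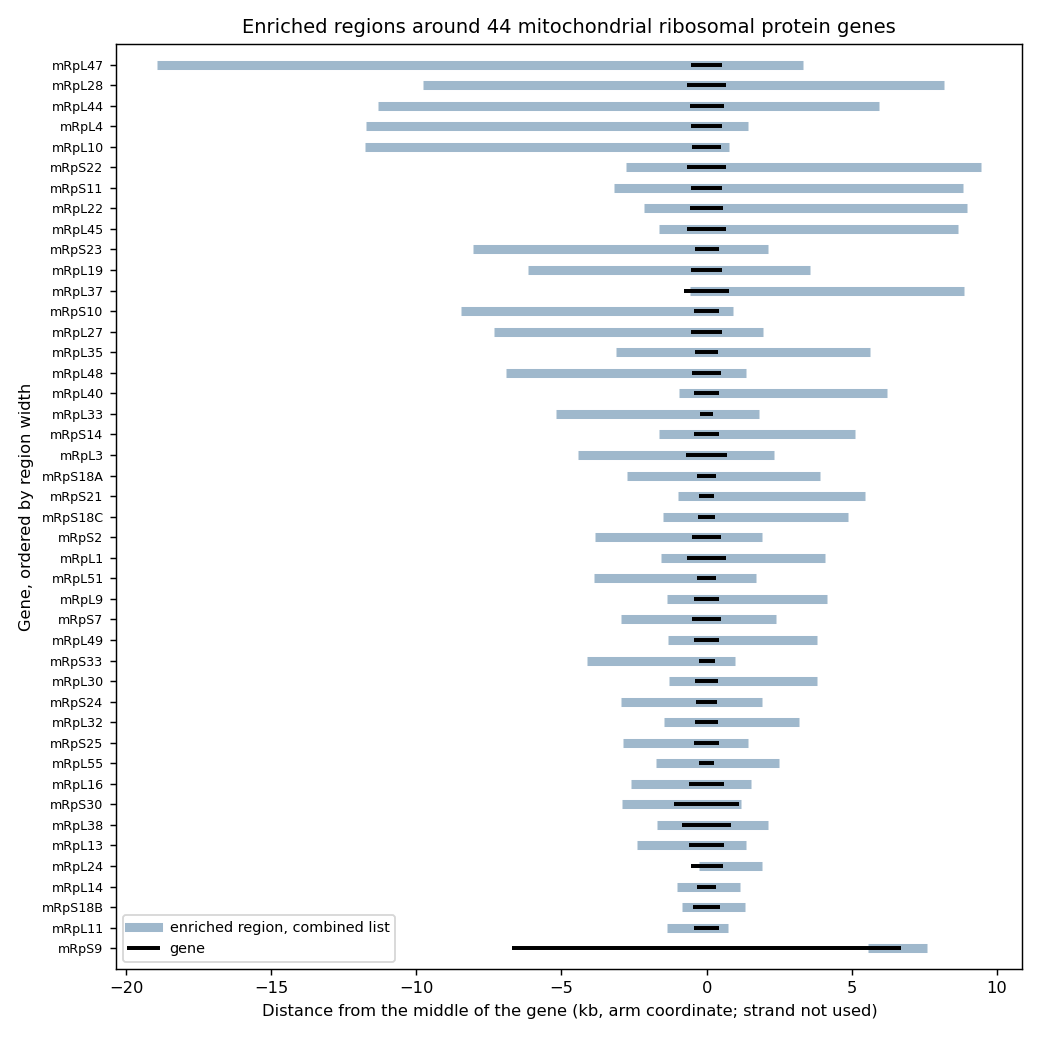
Enriched region of the combined list (grey-blue bars) around each of the 44 genes (black bars), in kb from the middle of the gene along the arm, ordered by region width. The genes are short against their regions, apart from mRpS9, and many regions extend mostly to 1 side.

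The regions were wide and reached past the genes, as the plot of region extents shows. Each of the 44 genes lay in a region of its own, with no region holding more than 1 of them. In replicate 1, replicate 2 and the combined list they had median widths of 5.21, 5.47 and 6.42 kb, against 2.69, 2.78 and 2.80 kb for the other regions of the arms. In the combined list 10 of the 44 regions were 10 kb or wider, or 22.7%, against 6.76% of the other regions. A wider region has more room to hold a gene of any kind, and the widths were not adjusted for this.

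The widest combined region was that of mRpL47, on 3R at 5322166 to 5344414, with 22.2 kb. It touched 8 other genes, among them Ras85D, the fly Ras gene, and rump, which encodes an RNA-binding protein. mRpL28 had 18 kb, on 2L at 4964874 to 4982842, with 12 other genes, the most of the 44. Among them were eIF3i, a translation initiation factor subunit, and Scox, which is needed to assemble cytochrome c oxidase. mRpL44 had 17.3 kb, on 3R at 1284446 to 1301720, with 7 others that included RpL35A of the cytoplasmic ribosome and HDAC3, a histone deacetylase.

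The narrowest were 2.03 kb for mRpS9, 2.11 kb for mRpL11 and 2.16 kb for mRpS18B in the combined list. These 3 genes were also among the 5 with the lowest scores. Over the 44 genes, the Spearman correlation of score and width was 0.739 in replicate 1, 0.637 in replicate 2 and 0.603 in the combined list. Over the other regions it was 0.565, 0.570 and 0.552. Exceptions to the order were mRpL55, highest in score at 4.25 kb, and mRpL10, low in score at 12.5 kb. Much of the mRpL10 region lay over spen, and replicate 1 gave mRpL10 a region of 3.37 kb.

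**Figure D4:**
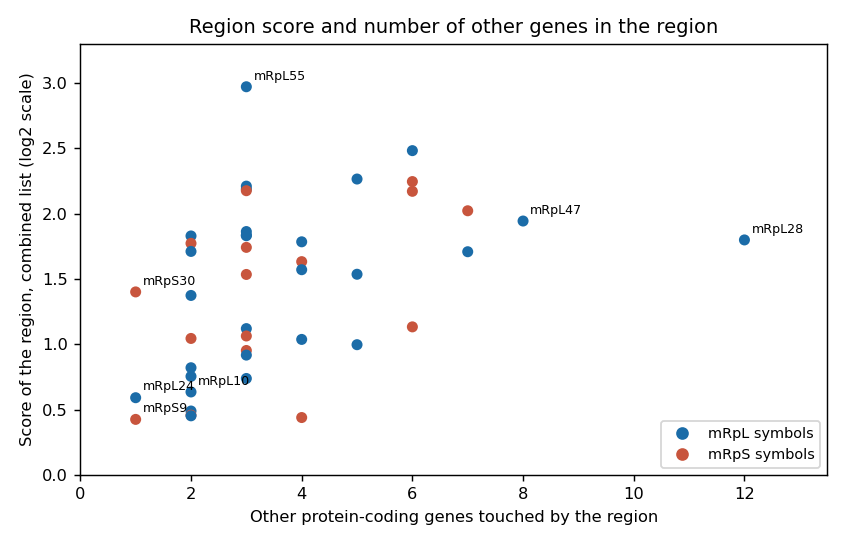
Score of the combined region, on a log2 scale, against the number of other protein-coding genes it touches, 1 point for each of the 44 genes, with mRpL symbols in blue and mRpS symbols in red. No region is without another gene, and the genes that share a region with 1 or 2 others include most of the low scores.

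None of the 44 genes had an enriched region to itself. Each combined region touched at least 1 other protein-coding gene, with a median of 3 and a maximum of 12. With the mitochondrial ribosomal protein gene included, 41 of the 44 combined regions touched 3 or more genes, or 93.2%, against 29.2% of the other regions and 47.2% of those other regions that touched at least 2 genes. The 3 exceptions were mRpL24 with betaggt-I, mRpS9 with EMC1 and mRpS30 with Paf-AHalpha. The score at a gene of this set can therefore not be told apart from that of its neighbours. A region with more genes is also more likely to hold a gene of any set, and the shares of regions were not adjusted for this.

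Scores were lower where fewer genes shared the region. In the 14 combined regions that touched 2 to 3 genes in all, the median score was 0.79, against 1.44 in the other regions with as many genes. In replicate 1 these medians were 0.77 over 20 regions, against 1.52, and in replicate 2 they were 1.14 over 18 regions, against 1.55. In the 19 combined regions of 4 to 5 genes the median was 1.63, against 1.68, and in the 11 of 6 or more genes it was 1.94, against 1.93. In the replicates, regions of 4 to 5 genes had medians of 1.83 and 1.83, against 1.74 and 1.77 in the other regions. Those of 6 or more genes had 1.78 and 1.92, against 2.03 and 2.07. The distance from the other regions was widest where few genes shared the region, and the larger classes differed in direction between classes and lists. These are descriptions over regions, and no test was made.

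The gene order around these genes was tight. Their median length was 986 bp, against 2188 bp for the other genes. Another protein-coding gene lay within 500 bp of all 44, against 70.7% of the other genes. An overlap with a neighbouring gene was found for 26 of the 44, or 59.1%, against 40.1% of the other genes. Among those that did not overlap, the smallest gap to a neighbour was 18 bp, between mRpL33 and NO66. mRpL22 lay 22 bp from CG9609 and mRpL40 lay 35 bp from mgr. mRpL49 lay 43 bp from Brms1 and mRpS11 lay 56 bp from Ns1. All 5 shared their combined region with the gene across the gap.

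The scores of these 5 closely flanked genes lay in the middle of the set. mRpL33 scored 1.89 in replicate 1, 1.81 in replicate 2 and 1.84 in the combined list, and mRpL40 scored 1.87, 1.89 and 1.78. mRpL49 was the lowest of them, with 1.31, 1.45 and 1.37. NO66 encodes a histone demethylase found in nucleoli, mgr a prefoldin subunit and Ns1 a nucleostemin-type GTPase.

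By the count of both ends, length and packing moved with coverage among the other genes as well. The 3975 other genes of 468 to 2242 bp, the lengths of all of the 44 but mRpS9, had both ends covered for 1360, or 34.2%, in the combined list. Over all other genes this was 30.3%. By the count of at least 1 end the direction was opposite, with 49.0% of the 3975, against 56.9% of all other genes. Of the 3975, the 1864 with 2 other genes within 1 kb had both ends covered for 920, or 49.4%. The 39 mitochondrial ribosomal protein genes of the same lengths and with 2 genes within 1 kb had both ends covered for 37, or 94.9%. Over the replicates the shares were 93.6% ± 1.81 of the 39 genes, against 44.3% ± 0.645 of the 1864 (SD, n = 2 replicates). The percentage of the other genes was thus higher after this matching, which was incomplete. The 39 genes had a median length of 981 bp and 56.4% overlapped a neighbour, against 1344.5 bp and 42.5% for the 1864. The gap to the 39 genes remained far wider than the spread between replicates, which covers the 2 libraries only and not a spread over genes. What the remaining differences in length and packing, or other features of the genes, add to this gap was not tested.

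The genes next to the 44 were covered often, though less fully. Of the 88 nearest neighbours, 84 had at least 1 end in a combined region, or 95.5%, and 55 had both, or 62.5%. Over all other genes these shares were 56.9% and 30.3%. The combined regions of the 44 genes reached a median of 2.04 kb below and 1.79 kb above the gene. A neighbour can thus be counted through the region of the mitochondrial ribosomal protein gene itself. Their median length was 2189 bp, close to that of the other genes.

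**Figure D5:**
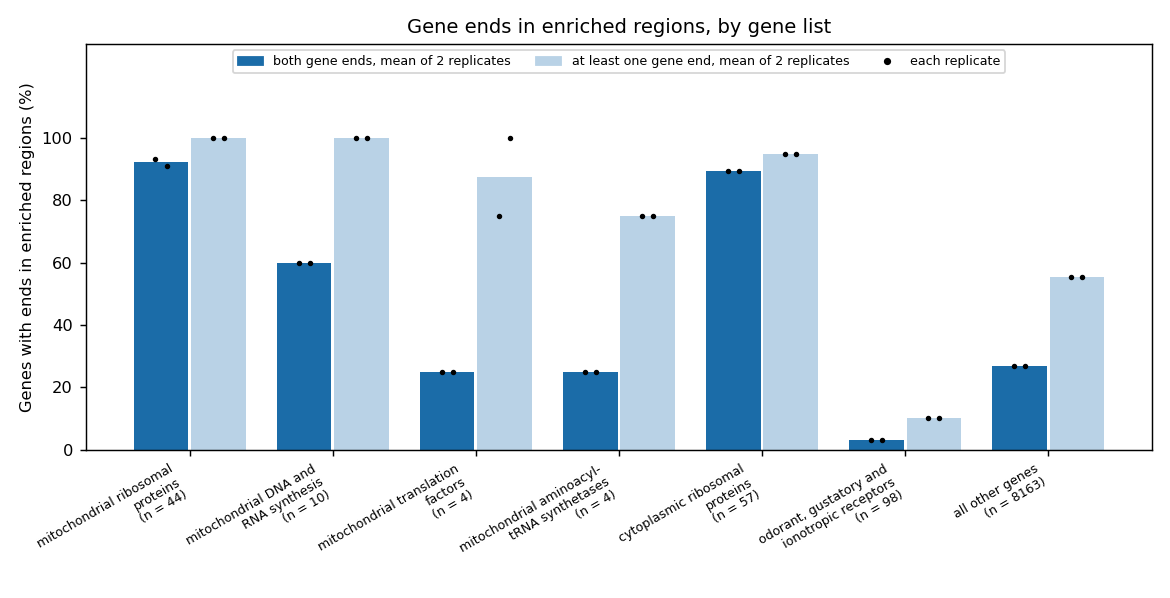
Percentage of genes with both ends (dark bars) and with at least 1 end (light bars) in enriched regions, as the mean of the 2 replicates with each replicate as a point, for the 44 mitochondrial ribosomal protein genes, further gene lists and all 8163 other genes. The 44 genes and the cytoplasmic ribosomal protein genes stand highest of the lists plotted for both ends, at 92.0% and 89.5%, and the receptor genes lowest of them, at 3.06%.

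Most other genes listed for mitochondrial gene expression met enriched regions too, with fewer wholly inside. Over all other genes, at least 1 end was covered for 55.4% in each replicate and 56.9% in the combined list. Both ends were covered for 26.8% in each replicate and 30.3% in the combined list. Of 10 genes for the copying and transcription of mitochondrial DNA on these arms, all 10 had at least 1 end covered in each list and 6 had both. Their median score was 2.02 in the combined list. mtDNA-helicase, which unwinds mitochondrial DNA, scored highest of them, with 2.82 in replicate 1, 2.98 in replicate 2 and 2.90 in the combined list. The cytoplasmic ribosomal protein gene RpS2, also on 2L, had the same score in each list, as genes in the same region do. The score of mtDNA-helicase can therefore not be told apart from that of RpS2. TFAM, which packs mitochondrial DNA, scored 2.04, 2.15 and 2.09. PolrMT, the mitochondrial RNA polymerase, scored 1.07, 1.16 and 1.10. The lowest was mTTF, a transcription termination factor, with 0.25, 0.35 and 0.13.

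PolG1 and PolG2, which encode the catalytic and accessory subunits of the mitochondrial DNA polymerase, were touched by the region of mRpS23. That region, on 2L at 13826600 to 13836766, was 10.2 kb wide in the combined list and touched 7 other genes, Polr2C, for a subunit of RNA polymerase II itself, among them. It scored 2.06 in replicate 1, 2.01 in replicate 2 and 2.02 in the combined list. PolG2 was covered whole in each list. PolG1 had 1 end covered, with 28.1% of its bases in replicate 1, 31.1% in replicate 2 and 30.9% in the combined list. The same region thus touched genes for a mitochondrial ribosomal protein and for both subunits of the polymerase that copies mitochondrial DNA.

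The 4 mitochondrial translation factor genes of these arms had at least 1 end covered in the combined list, and 2 of them, mEFG1 and mEFTs, had both. mEFG1, an elongation factor, scored 2.55 in replicate 1, 2.58 in replicate 2 and 2.55 in the combined list. mRRF2, a ribosome recycling factor, scored 0.43, 0.32 and 0.35. mIF2, an initiation factor, had no end covered in replicate 1 and scored 2.02 in replicate 2 and 1.80 in the combined list. Of 4 mitochondrial aminoacyl-tRNA synthetase genes, SerRS-m had both ends covered, AspRS-m and ArgRS-m had 1, and MetRS-m had none, in every list. Lists of 4 genes are too small to be set apart from the shares over all other genes. tko, a mitochondrial ribosomal protein gene of the small subunit under another name, had 1 end covered in every list, with 0.69, 0.69 and 0.67.

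The 44 genes were covered about as often as the cytoplasmic ribosomal protein genes picked by symbol and scored lower. Both ends lay in enriched regions for 41 and 40 of the 44 in the replicates, against 51 of 57 cytoplasmic ribosomal protein genes in each replicate, or 89.5%. Those without both ends covered in the replicates were RpS28-like, RpL7-like, RpS5b, RpL10Aa, RpS19b and RpS10a. Their symbols all end in -like, a or b, as do those of some covered genes. Every other cytoplasmic gene of the set had both ends covered. In the combined list the counts were 41 of 44, against 52 of 57, or 91.2%. The median score of the 44 mitochondrial ribosomal protein genes was 1.51 ± 0.01, against 2.43 ± 0.04 for the cytoplasmic set (SD over the medians of 2 replicates). In the combined list the medians were 1.55 for the 44 genes and 2.35 for the cytoplasmic set. The gap in score was far wider than the spread between replicates, which covers the 2 libraries only. The shares with both ends covered lay close together. By contrast, 3 of 98 odorant, gustatory and ionotropic receptor genes had both ends covered in each list and 10 had at least 1.

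There were 3 cytoplasmic ribosomal protein genes that shared a combined region with 1 of the 44 genes. RpL27A lay with mRpL27, RpL35A with mRpL44, and RpL4 with mRpS22. The RpL27A and RpL35A regions also held both genes together in each replicate. RpL4 was parted from mRpS22 in both replicates, where it lay in the higher-scoring piece described above.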

How the data were processed

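ChIP-seq reads of 2 ChIP and 2 Input libraries from Kc167 cells were processed by the authors, who used Bowtie 0.12.7 per the submitters' processing notes. How regions were called, with which threshold and control, and how replicates were joined was not given in the sources used here. Positions are in FlyBase release 5, per the file headers. The authors deposited a score for each region without naming its scale, and these deposited scores were taken as log2 values, since 108, 90 and 97 scores of replicate 1, replicate 2 and the combined list had another exactly 1 higher (tolerance 1e-10), and 0 had one higher by the natural or common logarithm of 2. A score ranks regions within its list. Depth is unknown, so no interval or floor is given.

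Genes came from a FlyBase release 6 table and were moved to release 5 by a constant for each arm. Checked over all gene ends, overlap with combined regions was highest at that constant on 2L (42.3%) and 3R (43.8%) and 250 bp away on X, and peaked within 750 bp of it in 18 of 19 parts of 4 Mb. The exception, X from 20 Mb, holds 0 of the 44 genes. Left out were 45 genes outside the release 5 arms.

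An end was covered when its base lay in a region with a score above 0. A gene's score is that of the region at its ends, the higher where they differ. The planned use of start sites and transcript direction was replaced by both gene ends, and the planned search of promoter motifs was not made, since strand and sequence are not used here. For the same reason the closest divergent neighbour of the naming rule was replaced by the smallest gap to a neighbour. That rule named genes uncovered or differing between lists, the 5 highest and 5 lowest combined scores, the 3 widest and 3 narrowest regions, and stalk and tunnel-exit genes. Further members were named by role or neighbour after their values were seen. Members and gene lists were chosen with earlier results of these data known, so counts and medians are given beside those of the other genes, with no test. Each mean ± SD covers the 2 replicates, and the combined value is the authors'. The labels do not say whether replicates are separate cultures, so their spread may be technical. Depleted regions on these arms, 14, 10 and 40 in replicate 1, replicate 2 and the combined list, touched none of the 44 genes. The scripts were checked on simulated regions. Software was matplotlib 3.10.9, scipy 1.17.1, pandas 2.3.3 and numpy 2.4.6 under Python 3.11.15.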

Additional observations from a re-analysis of the deposited data

How the results depend on the processing

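In the combined list 41 of the 44 genes and 2470 of the 8163 other genes had both ends covered. Each count stayed within 1.5 times under 8 of the planned settings, the replicate lists among them, which gave 40 to 41 of the 44 and 2185 to 2188 of the others. With regions at or above the median score of 1.37 alone the counts were 25 and 1531. Without the offset on 3R and X, which misplaces those genes, they were 14 of 41 with a position and 1338. The median score of the 44 genes was 1.83 and 1.38 under these 2 settings, 1.71 with regions under the lower quartile of scores (0.70) left out, 1.25 with regions of 10 kb or more left out, and 1.5 to 1.52 in single replicates, against 1.55. The median percent of gene bases covered was 100, and 0 without the offset. Of genes with no other gene end within 1 kb, 71 of 1594 others, or 4.45%, were covered. None of the 44 belonged to them, so no value could be had. Added after seeing the data were a count of at least 1 end, with 44 and 4646, a length range without mRpS9, with 1360 others, and X from 20 Mb left out, with 2451 others. No paired analysis was possible because the Input libraries have no list used here and no result comes from a test. Depth, strand and signal within regions are unknown, which limits every score to its region.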
